A study of Mus musculus with 20 samples.

Results

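The response of mouse gastrocnemius to a single bout of treadmill exercise was examined in muscle labelled as lacking Bmal1. The comparison set 5 libraries from exercised mice against 5 from resting mice, 10 of the 20 libraries of the series, and all 13560 genes that passed a filter on low counts were tested. Every animal of the series carried the genotype Cre+:iMSBmal1 fl/fl, that is, Cre together with floxed Bmal1 alleles. In the libraries called knockout-labelled here, the treatment label was iMSBmal1KO, without exercise (tissue taken at zeitgeber time 13) or with exercise (30 minutes on the treadmill, taken 1 hour afterwards, labelled as zeitgeber time 13 with that delay). The other 10 libraries came from vehicle-treated mice of the same genotype, 5 at rest and 5 exercised, and were used for the shared estimate of spread, the slope of a slow-fibre covariate, reference levels of clock genes, and the test of whether the responses differed. The exercised knockout-labelled samples carry the words Exercise Trained in their descriptions and Acute Exercise in their titles, and the series design gives a treadmill bout of 30 minutes. The Cre driver, the inducing agent and the age of the mice are not given in the sources used here, and nothing in the labels says that the 5 samples of a group came from separate animals, so p-values measure the spread between these samples.

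BMAL1, encoded by Arntl, pairs with CLOCK and binds E-box sequences to switch on circadian genes, among them its own repressors of the PER and CRY families and the output regulators Dbp, Tef and Hlf. Contraction raises calcium, cyclic AMP, temperature and energy demand in muscle fibres. Within the first hours it is known to induce immediate early transcription factors, heat shock chaperones, and metabolic genes such as Pdk4 and Irs2. Several of these genes, Per1 among them, carry both clock-driven and signal-driven control elements, so that they can respond to a stimulus as well as to time of day.

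The libraries held between 8045154 and 11269812 counts. Arntl, the targeted gene, stood at 15.9, 16.4, 12.7, 15.3 and 12.1 CPM at rest and 11.5, 15.5, 21.2, 20.1 and 13.8 CPM after exercise in the knockout-labelled libraries. It ranged from 9.74 to 14.9 CPM in vehicle at rest, so the groups overlapped. On the log2 scale, exercised minus resting knockout-labelled libraries came to 0.18 with an SE of 0.23 (adjusted p 0.9995). CPM is the count per 1000000 counts of the library, scaled with TMM factors. A count over the whole gene does not resolve a deleted exon, and an antisense gene, Gm45355, overlaps an Arntl exon, so this value does not check the labels. Dbp, a direct target of BMAL1, ranged from 10.8 to 13.9 CPM in the knockout-labelled resting libraries and from 10.4 to 14.3 CPM in the exercised ones. In vehicle it ranged from 68.7 to 87.1 CPM at rest and from 55.98 to 64.8 CPM after exercise, with no overlap between treatments. Npas2, which is held down by the clock through REV-ERB proteins, lay the other way. At rest it ranged from 3.11 to 3.79 CPM in knockout-labelled muscle and from 0 to 0.348 CPM in vehicle.

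Muscle identity was clear in every library, and the share of slow fibres was not even. The 6 skeletal muscle markers summed to 62199 to 78129 CPM at rest and 62200.3 to 87931 CPM after exercise in the knockout-labelled libraries. A slow-fibre score, the mean log2 CPM of 10 slow-fibre genes such as Myh7, the slow myosin heavy chain, stood at 8.02, 8.33, 6.83, 4.58 and 7.42 in the resting libraries 1 to 5. It stood at 5.46, 1.50, 6.98, 1.34 and 7.67 in the exercised libraries 1 to 5. Exercised libraries 2 and 4 thus held little slow-fibre RNA, and Myh7 itself stood at 48.4, 1.08, 349, 1.89 and 811 CPM in the exercised group against 57.04 to 1236 CPM at rest. The score was 2.44 units apart on average (exercise minus rest -2.44, exact two-sided permutation p 0.175, adjusted p 0.524 over 3 library measures, smallest p this design allows 0.00794). A difference beyond the spread between libraries was not shown. All 10 slow-fibre genes had a fitted fold change below 0 and none passed the test. In these bulk samples, fewer fibres of a type and less RNA per fibre cannot be told apart.

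**Figure D1:**
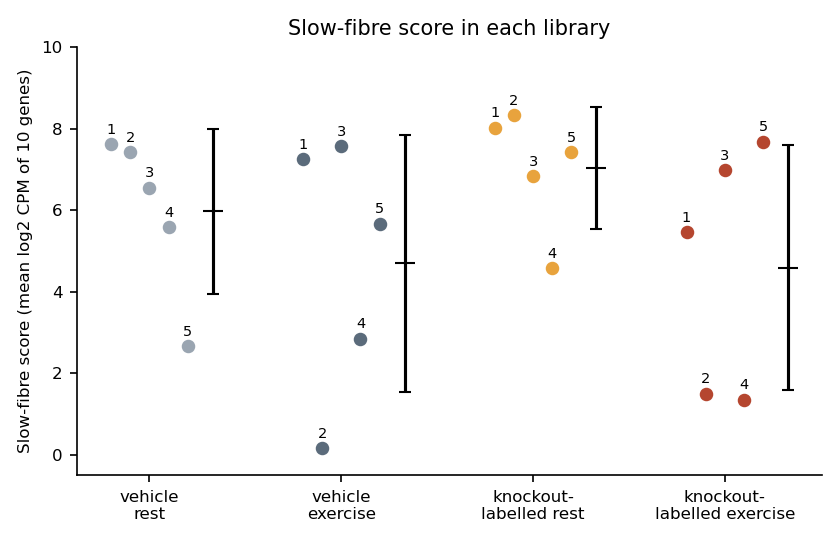
Slow-fibre score (y axis, mean log2 CPM of 10 slow-fibre genes) in each library of the 4 groups, with replicate numbers above the points and the mean and SD (n = 5) beside each group. Exercised knockout-labelled libraries 2 and 4, at 1.50 and 1.34, lie below all 5 resting knockout-labelled libraries.

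Markers of other cell types were compared in the same libraries. All 5 tendon genes were lower after exercise without passing (summed level 69.0 to 177 CPM at rest, 55.1 to 119 CPM after exercise). All 5 red blood cell genes were also lower without passing (73.3 to 136 CPM at rest, 48.2 to 139 CPM after exercise). Endothelial markers summed to 110 to 149 CPM at rest and 95.4 to 137 CPM after exercise, and macrophage markers to 16.6 to 24.7 CPM and 21.2 to 30.6 CPM. None of the 4 neutrophil genes passed the count filter, and their sum stayed between 0.124 and 1.08 CPM in the knockout-labelled libraries. Many genes followed the slow-fibre score: its slope passed an adjusted p under 0.05 for 3211 of 13550 genes outside the score. Calls and gene lists below are therefore given from a fit without the score and from a fit with the score as a covariate. The latter compares exercise with rest at equal score, assuming 1 slope per gene shared by all 4 groups. Exercised knockout-labelled libraries 2 and 4, at 1.50 and 1.34, lie below the lowest resting knockout-labelled score, 4.58. For them the fit extrapolates that slope, and whether the slope is shared was not tested. A log2 fold change with no fit named is from the fit without the covariate. Fast-fibre genes were above 0 in 7 of 11 cases without the covariate (50.0% of all genes). With it, 1 of 11 was above 0 (48.6% of all genes). There 5 were lower and 1 higher at an unadjusted p under 0.05 (3.65% and 5.35% of all genes), and none passed. Slow-fibre genes had 3 lower and 3 higher at that threshold. All 6 skeletal muscle markers were below 0, none at that threshold. Equal score thus did not mean equal fitted levels of fast-fibre genes. The part of fibre share in the results was not tested beyond this adjustment.

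Without the covariate, no gene passed the test of exercise against rest in knockout-labelled muscle (0 of 13560, 0%, edgeR quasi-likelihood test, Benjamini-Hochberg adjustment). The smallest adjusted p was 0.813. An unadjusted p under 0.05 was reached by 639 genes (4.71%), 329 higher (2.43%) and 310 lower (2.29%). DESeq2 and limma-voom also called 0 genes, with 631 and 591 at an unadjusted p under 0.05. The median standard error of a log2 fold change was 0.17, and Zcchc2, at a log2 fold change of 0.61 with an SE of 0.14, was not called. Over all genes, 66 had 5 exercised libraries above all 5 resting ones (0.487%) and 49 had them below (0.361%). Among the 252 relabellings of 5 against 5, a share of 0.00794 separates the groups in 1 direction or the other. Separation alone therefore does not show a response.

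With the covariate, 5 of 13550 genes were called higher (0.0369%) and none lower. They were Plxna2, a semaphorin receptor subunit, Adamts9, a secreted protease that cuts matrix proteoglycans, Gpr4, a proton-sensing receptor of endothelial cells, Slc9a3r2, a scaffold of membrane transporters also known as NHERF2, and Pdxk, the kinase that makes active vitamin B6. At an unadjusted p under 0.05 there were 726 genes higher (5.35%) and 495 lower (3.65%).

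Plxna2 stood at 17.3, 19.8, 16.3, 16.1 and 18.0 CPM at rest and 28.9, 22.6, 22.9, 18.8 and 28.02 CPM after exercise. Only exercised library 4 lay inside the resting range. Its log2 fold change was 0.47 without the covariate (SE 0.17, adjusted p 0.9995) and 0.69 with it (SE 0.12, adjusted p 0.0295).

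Adamts9 stood at 4.85, 3.33, 4.10, 2.91 and 5.64 CPM at rest and 8.10, 5.18, 8.32, 6.61 and 8.74 CPM after exercise. Exercised libraries 1, 3, 4 and 5 lay above all resting ones, and library 2 lay just under the highest resting value. The log2 fold change was 0.83 without the covariate (SE 0.18, adjusted p 0.813) and 0.97 with it (SE 0.17, adjusted p 0.0295). An antisense gene, Gm15737, overlaps an exon of Adamts9, and whether reads were assigned by strand is not given in the sources used here.

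Pdxk stood at 11.8, 13.9, 8.63, 10.6 and 12.03 CPM at rest and 30.1, 8.96, 39.6, 14.7 and 26.7 CPM after exercise. Exercised libraries 1, 3 and 5, those with a slow-fibre score over 3, were all over 26 CPM. Exercised library 2 lay inside the resting range and library 4 just above it. Its fitted difference was 1.08 without the covariate (SE 0.38, adjusted p 0.9995) and 1.43 with it (SE 0.24, adjusted p 0.0340).

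Slc9a3r2 and Gpr4 had the same division among the exercised libraries. Slc9a3r2 stood at 35.3, 31.5, 27.8, 23.9 and 36.2 CPM at rest and 39.8, 30.1, 50.8, 21.5 and 49.96 CPM after exercise, and its log2 fold change was 0.32 without the covariate (SE 0.21, adjusted p 0.9995) and 0.59 with it (SE 0.11, adjusted p 0.0340). Gpr4 stood at 3.36, 2.76, 1.33, 1.08 and 2.02 CPM at rest and 4.51, 3.02, 4.60, 1.62 and 4.54 CPM after exercise, from 10 counts in the lowest resting library to 53 counts in the highest exercised one. Its difference was 0.82 without the covariate (SE 0.39, adjusted p 0.9995) and 1.37 with it (SE 0.24, adjusted p 0.0295). Both genes followed the slow-fibre score across the 20 libraries, by 0.13 log2 units per unit of score for Slc9a3r2 (adjusted p 2.11e-06) and 0.25 for Gpr4 (adjusted p 2.15e-05), and neither passed without the adjustment.

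These 5 calls were not stable to the choice of libraries. Leaving out resting library 2, 3 or 4 or exercised library 1 left 0 calls, leaving out exercised library 3 left 2, and leaving out exercised library 4 gave 17. Limma-voom called 0 and DESeq2 50. The size of the 5 differences moved little over the settings compared, which do not include fits without 1 vehicle library. The log2 fold change with the covariate lay between 0.63 and 0.79 for Plxna2, 0.88 and 1.10 for Adamts9, 1.26 and 1.54 for Gpr4, 0.52 and 0.66 for Slc9a3r2, and 1.27 and 1.57 for Pdxk.

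**Figure D2:**
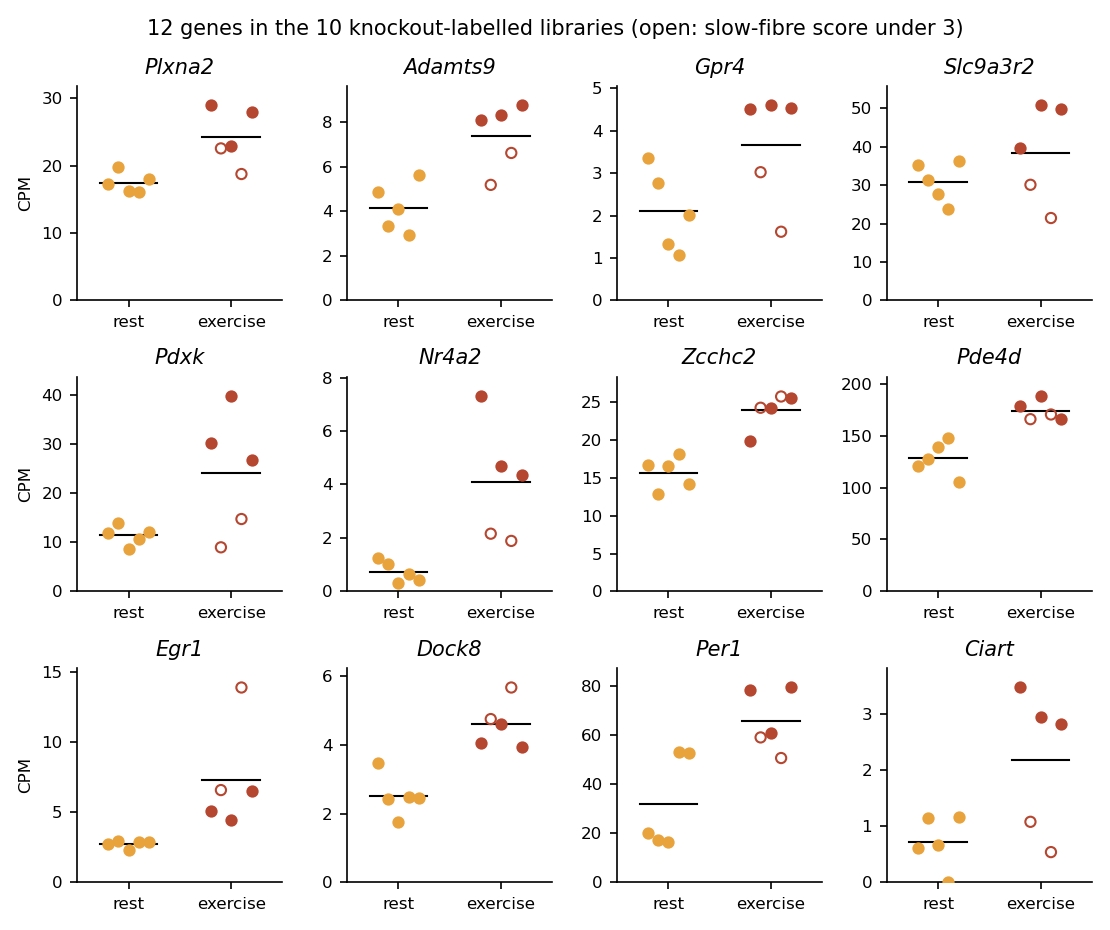
CPM (y axis, from 0) of 12 genes in the 5 resting and 5 exercised knockout-labelled libraries, with the mean of each group as a line and the 2 exercised libraries with a slow-fibre score under 3 as open circles. In Pdxk, Slc9a3r2, Gpr4 and Ciart the open circles lie near or inside the resting range, while in Zcchc2, Pde4d, Egr1 and Dock8 all 5 exercised libraries lie above it.

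Fits on other sets of libraries, or with another tool, returned a wider group of genes, named here after their values were seen. With the covariate, 31 genes passed when only the 10 knockout-labelled libraries were fitted (30 higher), 50 when the 5 libraries of the series with a score under 3 were left out (48 higher), and 50 with DESeq2 (48 higher). These 3 settings called the most genes of those run. They reuse the same knockout-labelled libraries, so genes they share are not independent support. With limma-voom, or with the replicate number as a block, the covariate fit called 0. The 3 fits with the most calls shared 15 genes, all higher after exercise, and 4 of the 5 genes above were among them. The other 11 were Nr4a2, Sik1, Ciart, Hk2, Alpl, Arid5b, Ell, Ern1, Nfe2l2, Pde4c and Tinagl1. Nfe2l2 encodes NRF2, the master regulator of antioxidant genes, and stood at 31.6, 33.7, 32.4, 29.5 and 30.1 CPM at rest and 51.96, 33.5, 47.5, 36.03 and 50.9 CPM after exercise. Ern1 encodes IRE1, a sensor of unfolded protein in the endoplasmic reticulum, and stood at 15.2, 12.9, 11.8, 11.3 and 15.4 CPM at rest and 15.9, 14.5, 24.6, 10.4 and 24.4 CPM after exercise. Both had exercised libraries 1, 3 and 5 above the resting range, those with a slow-fibre score over 3, and for Nfe2l2 exercised library 4 also lay above it. Arid5b, a DNA-binding regulator of transcription, stood at 14.3, 21.8, 16.6, 13.05 and 16.4 CPM at rest and 31.5, 11.98, 36.2, 16.5 and 28.5 CPM after exercise. Hk2, the inducible hexokinase that traps glucose in muscle, stood at 280.1, 276, 285, 293 and 297 CPM at rest and 413, 221, 480.4, 269.5 and 447 CPM after exercise, and again libraries 1, 3 and 5 lay above rest while 2 and 4 lay below it. Without those 5 low-score libraries and without the covariate, 3 genes rose, Arid5b (log2 fold change 0.96, adjusted p 0.0346), Ip6k3, an inositol hexakisphosphate kinase of muscle (0.86, adjusted p 0.0378), and Tinagl1 (0.75, adjusted p 0.0431).

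The immediate early genes, transcription factors and signal regulators induced within an hour without new protein synthesis, mostly had higher fitted values after exercise. Of 24 tested, 21 had a log2 fold change above 0, against 50.0% of all genes, and the list median was 0.41 against 0.00. None passed the test without or with the covariate. An unadjusted p under 0.05 was reached by 5 genes, Egr1, Nr4a1, Nr4a2, Nr4a3 and Sik1, all higher (2.43% of all genes were). In 4, Nr4a1, Nr4a2, Egr1 and Junb, all exercised libraries lay above the resting ones (0.487% of all genes). With the covariate 23 of 24 were above 0 (48.6% of all genes), with a median of 0.40.

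The NR4A family, orphan nuclear receptors that respond to calcium and cyclic AMP in contracting muscle, held the 2 largest differences of the list. Nr4a2 stood at 1.24, 1.03, 0.332, 0.647 and 0.426 CPM at rest and 7.29, 2.16, 4.70, 1.89 and 4.37 CPM after exercise. No exercised library overlapped rest, and libraries 1, 3 and 5 were the highest. Counts were low, from 3 to 10 at rest and from 14 to 63 after exercise. The log2 fold change was 2.48 without the covariate (SE 0.57, adjusted p 0.813) and 2.73 with it (SE 0.56, adjusted p 0.0773). Nr4a3 stood at 42.03, 9.998, 3.43, 9.49 and 13.2 CPM at rest and 51.03, 20.3, 68.8, 60.9 and 64.4 CPM after exercise, with resting library 1 inside the exercised range, and differed by 1.77 (SE 0.83, adjusted p 0.9995). Nr4a1 stood at 178, 93.3, 116, 159 and 127 CPM at rest and 215, 218, 203, 196 and 198 CPM after exercise, without overlap, a difference of 0.61 (SE 0.24, adjusted p 0.9995).

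The promoters of these genes are shown because the family is a textbook target of CREB, the cyclic AMP and calcium responsive factor. The 250 bases before the RefSeq start (build GRCm38.p6) are printed 5′ to 3′ on the gene's strand, with each CRE half-site in capitals (TGACG, or CGTCA where it lies on the other strand). Nr4a1 lies at chr15:101266596-101266845 on the plus strand and Nr4a2 at chr2:57124004-57124253 on the minus strand.
Nr4a1: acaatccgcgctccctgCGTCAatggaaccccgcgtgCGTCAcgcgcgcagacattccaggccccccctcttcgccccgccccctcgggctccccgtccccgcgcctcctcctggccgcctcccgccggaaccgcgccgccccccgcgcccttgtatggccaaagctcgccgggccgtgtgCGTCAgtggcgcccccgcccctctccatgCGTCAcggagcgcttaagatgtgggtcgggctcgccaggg
Nr4a2: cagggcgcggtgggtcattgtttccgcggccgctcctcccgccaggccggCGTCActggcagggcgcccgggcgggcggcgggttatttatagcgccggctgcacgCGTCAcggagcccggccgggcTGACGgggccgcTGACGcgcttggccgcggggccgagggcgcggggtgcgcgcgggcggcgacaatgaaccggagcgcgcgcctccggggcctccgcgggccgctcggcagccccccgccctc
Both windows held 4 half-sites, and so did that of Nr4a3. Over 32851 RefSeq promoter windows of that length, 17.8% held at least 1 half-site and 0.137% held at least 4. The full palindrome TGACGTCA, which contains the half-site on both strands, was in 1.55% of windows and in none of these 3. Of the 20 immediate early genes with a RefSeq window, 13 held a half-site, as did 19.8% of all 27025 genes. A match is only a match of letters.

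Egr1, a zinc finger factor, stood at 2.74, 2.99, 2.32, 2.91 and 2.88 CPM at rest and 5.09, 6.59, 4.49, 13.9 and 6.51 CPM after exercise, all exercised libraries above rest and library 4 far above the other 4. Its log2 fold change was 1.39 without the covariate (SE 0.37, adjusted p 0.813) and 1.21 with it (SE 0.39, adjusted p 0.307). Sik1, a kinase induced by CREB that feeds back on it, stood at 18.03, 22.5, 10.1, 12.4 and 17.6 CPM at rest and 34.1, 16.4, 37.6, 16.9 and 36.3 CPM after exercise, a difference of 0.82 without the covariate (SE 0.29, adjusted p 0.9995) and 1.01 with it (SE 0.27, adjusted p 0.253). Libraries 1, 3 and 5 were again the high ones, and libraries 2 and 4 lay inside the resting range. In Atf3, a stress-induced factor, they were the highest too, at 11.6, 13.3, 7.97, 7.76 and 12.8 CPM at rest and 41.8, 5.83, 35.01, 13.8 and 20.7 CPM after exercise. Junb stood at 3.73, 3.91, 2.44, 2.91 and 3.73 CPM at rest and 5.21, 7.34, 4.49, 5.13 and 4.63 CPM after exercise, but an exon of Prdx2 overlaps it on the other strand. Fos, the prototype of the class, overlapped widely at 1.99, 6.32, 0.886, 3.67 and 3.62 CPM at rest and 10.8, 1.40, 4.92, 3.64 and 4.20 CPM after exercise, and Jun, Jund, Ier2 and Dusp1 differed by -0.01, 0.05, 0.14 and 0.09 on the log2 scale.

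Heat shock genes, whose chaperones refold damaged protein under the control of HSF1, were above 0 in 13 of 15 cases with a median of 0.16, and in 14 of 15 with a median of 0.33 with the covariate (50.0% and 48.6% of all genes were above 0). None passed. With 1 knockout-labelled library left out, the median without the covariate lay between 0.12 and 0.26, the latter without exercised library 4. Hspa1b, an inducible HSP70, stood at 12.1, 20.9, 6.53, 4.96 and 6.07 CPM at rest and 53.8, 50.8, 41.8, 2.16 and 22.9 CPM after exercise. Libraries 1, 2, 3 and 5 lay above all resting ones and library 4 lay under them all. The log2 fold change was 1.77 without the covariate (SE 0.78, adjusted p 0.9995) and 2.49 with it (SE 0.78, adjusted p 0.314). Hspa1a, a near-identical copy whose reads cannot always be told from those of Hspa1b, stood at 13.6, 26.2, 8.86, 8.52 and 10.01 CPM at rest and 53.2, 38.5, 39.3, 7.15 and 30.9 CPM after exercise. Bag3, a co-chaperone that guides damaged sarcomere proteins to autophagy, stood at 153, 183, 145, 134 and 161 CPM at rest and 198, 173, 208, 135 and 207 CPM after exercise and differed by 0.25 without the covariate (SE 0.15, adjusted p 0.9995) and 0.45 with it (SE 0.10, adjusted p 0.0722). Of the 12 heat shock genes with a RefSeq window, 7 held the heat shock element letters GAANNTTC, which read the same on both strands, against 7.73% of all genes. An antisense gene, Gm20481, overlaps Hspa1a.

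**Figure D3:**
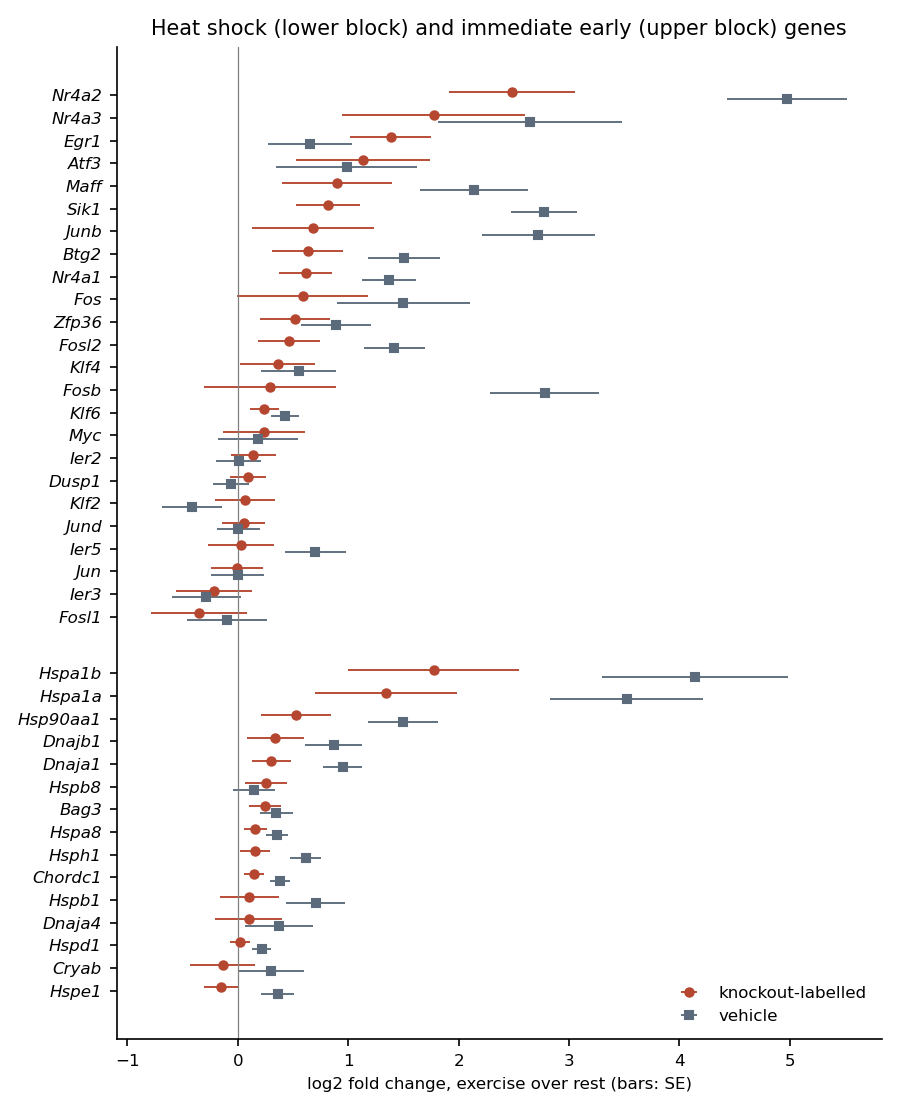
Log2 fold change, exercise over rest (x axis, bars give the SE of the fit), of 24 immediate early and 15 heat shock genes in knockout-labelled muscle (circles) and in vehicle muscle (squares). Nr4a2 lies at 2.48 in knockout-labelled muscle and 4.97 in vehicle, and Hspa1b at 1.77 and 4.14, while Egr1 lies at 1.39 and 0.65.

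Among metabolic genes known to respond to exercise, none of 15 passed the test in either fit. In the fit without the covariate 11 were above 0 (50.0% of all genes were) with a median of 0.36, which was 0.24 without exercised library 3. An unadjusted p under 0.05 was reached by 6, Irs2, Pdk4, Slc25a25, Cpt1a, Ucp3 and Ppard, all higher (2.43% of all genes were). With the covariate 12 were above 0 (48.6% of all genes) with a median of 0.24, and 7 reached it, all higher (5.35%). Irs2, an adaptor of the insulin receptor, stood at 56.3, 35.9, 23.8, 27.2 and 27.9 CPM at rest and 133, 39.3, 127, 42.4 and 102 CPM after exercise. Libraries 1, 3 and 5 were over 100 CPM and libraries 2 and 4 were inside the resting range, and the difference was 1.38 without the covariate (SE 0.47, adjusted p 0.9995) and 1.72 with it (SE 0.40, adjusted p 0.166). Pdk4, the kinase that closes pyruvate dehydrogenase and spares glucose, stood at 576, 1259.8, 714, 551 and 925 CPM at rest and 999.8, 1348, 1791, 1089.5 and 1204 CPM after exercise, and resting library 2 overlapped the exercised range (0.68, SE 0.24, adjusted p 0.9995). Slc25a25, a mitochondrial ATP-magnesium carrier, stood at 29.5, 24.7, 51.7, 128 and 64.0 CPM at rest and 169, 201, 98.5, 105 and 96.9 CPM after exercise, with resting library 4 inside the exercised range (1.17, SE 0.38, adjusted p 0.9995). Cpt1a, an enzyme of fatty acid entry into mitochondria, was the member without overlap, higher after exercise (0.487% of all genes). It stood at 5.84, 6.55, 5.42, 5.18 and 4.58 CPM at rest and 7.29, 8.96, 7.99, 8.64 and 7.88 CPM after exercise (0.56, SE 0.19, adjusted p 0.9995). Ppargc1a, the coactivator PGC-1 alpha, stood at 67.1, 48.4, 35.8, 41.4 and 87.6 CPM at rest and 73.9, 22.7, 134, 35.9 and 97.9 CPM after exercise. It was highest in exercised library 3 and lowest in exercised library 2, and its log2 fold change was 0.38 without the covariate (SE 0.55, adjusted p 0.9995) and 0.90 with it (SE 0.33, adjusted p 0.424). Ucp3, a mitochondrial uncoupling protein of muscle, stood at 201, 155, 151, 137 and 132 CPM at rest and 189.7, 302, 235, 254 and 180.0 CPM after exercise. Lpin1, a phosphatidate phosphatase, showed little difference, 0.07 (SE 0.09). Exons of 9530052E02Rik and Naif1 overlap Irs2 and Slc25a25 on the other strand.

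Among glucose handling genes, 10 of 14 were above 0 in both fits, with medians of 0.09 and, with the covariate, 0.02. Over all genes, 50.0% were above 0 without the covariate and 48.6% with it. Pdk2 had no overlap, higher after exercise (0.487% of all genes), at a difference of only 0.09 (SE 0.07). Slc2a4, the insulin-responsive transporter GLUT4, stood between 478 and 515 CPM at rest and between 393 and 557 CPM after exercise. Of 12 hypoxia targets 5 were above 0 (median -0.03), and 6 with the covariate (median 0.02). Vegfa, the main vessel growth factor, stood at 271, 331, 258, 261 and 337 CPM at rest and 367, 219, 445, 223 and 372 CPM after exercise, once more with libraries 1, 3 and 5 highest, and differed by 0.16 without the covariate (SE 0.22, adjusted p 0.9995) and 0.41 with it (SE 0.12, adjusted p 0.261).

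Of 13 clock genes that BMAL1 activates, none passed in either fit. Without the covariate 10 were above 0 (50.0% of all genes were), and the median was 0.13, between 0.08 without resting library 2 and 0.20 without exercised library 2. An unadjusted p under 0.05 was reached by 4, Per1, Per2, Ciart and Usp2, all higher (2.43% of all genes were). With the covariate 11 were above 0 (48.6% of all genes, list median 0.12) and 5 reached it, all higher (5.35% of all genes). Per1, a repressor arm gene that also answers to CREB and glucocorticoids, stood at 20.1, 17.2, 16.6, 53.4 and 52.6 CPM at rest and 78.5, 59.2, 60.9, 50.7 and 79.5 CPM after exercise. Resting libraries 4 and 5 lay inside the exercised range and resting libraries 1 to 3 far below it. The log2 fold change was 1.04 without the covariate (SE 0.30, adjusted p 0.864) and 0.98 with it (SE 0.32, adjusted p 0.324). Per2 stood at 14.1, 11.03, 10.96, 16.6 and 12.99 CPM at rest and 28.2, 17.4, 20.02, 9.85 and 21.9 CPM after exercise, with exercised library 4 below every resting one and a difference of 0.57 without the covariate (SE 0.20, adjusted p 0.9995) and 0.68 with it (SE 0.19, adjusted p 0.244). Ciart, a repressor of CLOCK and BMAL1 also known as CHRONO, stood at 0.622, 1.15, 0.664, 0 and 1.17 CPM at rest and 3.47, 1.08, 2.95, 0.540 and 2.83 CPM after exercise, or 0 to 11 and 4 to 33 counts. Its difference was 1.60 without the covariate (SE 0.50, adjusted p 0.9995) and 1.91 with it (SE 0.41, adjusted p 0.0627). Dbp and Tef, circadian output genes, and Nr1d1, which encodes REV-ERB alpha, differed by -0.01, 0.02 and 0.06 (SE 0.11, 0.08 and 0.13).

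The promoter of Ciart is shown because Ciart, a target of BMAL1, was among the 15 genes shared by the 3 other fits above, although its adjusted p was 0.9995 and 0.0627 in the pair of edgeR fits above. The 250 bases before its RefSeq start, at chr3:95882229-95882478 on the minus strand (GRCm38.p6), held 3 copies of the E-box CACGTG, in capitals, which reads the same on both strands.
Ciart: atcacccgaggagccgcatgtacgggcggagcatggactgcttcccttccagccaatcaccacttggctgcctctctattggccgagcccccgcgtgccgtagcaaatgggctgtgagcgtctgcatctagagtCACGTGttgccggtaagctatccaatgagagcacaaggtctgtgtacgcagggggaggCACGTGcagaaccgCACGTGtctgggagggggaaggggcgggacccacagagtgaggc
An E-box was present in 6.02% of all windows and 3 or more in 0.0609%. The window of Ciart held no CRE half-site.

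Of the 5 clock-repressed genes, 3 were above 0 (50.0% of all genes were, list median 0.02), and 2 with the covariate (48.6% of all genes, list median -0.05). Nfil3, a repressor that competes with DBP for its sites, reached an unadjusted p under 0.05, higher (2.43% of all genes were). It stood at 94.8, 80.3, 50.5, 72.5 and 81.9 CPM at rest and 99.4, 92.1, 123, 90.7 and 120.2 CPM after exercise, with resting library 1 inside the exercised range, and its log2 fold change was 0.47 without the covariate (SE 0.17, adjusted p 0.9995) and 0.54 with it (SE 0.18, adjusted p 0.324).

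The remaining lists held no call without the covariate. With the covariate they held 1, Adamts9. Over all genes, 50.0% were above 0 without the covariate and 48.6% with it. At an unadjusted p under 0.05, 2.43% were higher and 2.29% lower without the covariate, and 5.35% and 3.65% with it. Libraries did not overlap, higher after exercise, for 0.487% of all genes. Glucocorticoid-responsive genes were above 0 in 10 of 13 cases in both fits (median 0.38, and 0.21 with the covariate), with an unadjusted p under 0.05 for Cebpb and Klf9. Cebpb, a transcription factor of the acute stress response, stood at 71.2, 75.3, 59.0, 113 and 86.8 CPM at rest and 119, 99.9, 123, 73.6 and 135 CPM after exercise, and an exon of Tmem189 overlaps it on the other strand. Ddit4, an inhibitor of mTORC1, spread widely, at 26.2, 4.14, 7.97, 79.7 and 37.2 CPM at rest and 94.7, 101, 44.1, 42.1 and 76.9 CPM after exercise. ATF4 and unfolded protein response genes were above 0 in 8 of 9 cases (median 0.21, and 0.08 without exercised library 4), and in 9 of 9 with the covariate (median 0.13). Among genes for ubiquitin ligases and FOXO factors 7 of 10 were above 0 (median 0.07), and 8 with the covariate (median 0.09). Fbxo32 and Trim63, the ligases of muscle atrophy, differed by -0.09 (SE 0.17) and 0.26 (SE 0.20). Of 12 CREB and salt-inducible kinase genes 10 were above 0 (median 0.08, and between 0.02 without exercised library 2 and 0.17 without resting library 1), and 7 with the covariate (median 0.05). Its member Pde4d, a phosphodiesterase that breaks down cyclic AMP, stood at 120.5, 128, 139, 148 and 106 CPM at rest and 178, 166, 188, 170.3 and 166 CPM after exercise without overlap (0.44, SE 0.11, adjusted p 0.813). p53 and growth arrest genes were above 0 in 5 of 8 cases (median 0.10), and in 4 of 8 with the covariate (median -0.02), where 1 was higher and 2 lower at an unadjusted p under 0.05. Vessel and matrix genes were above 0 in 6 of 11 cases (median 0.01), and in 8 of 11 with the covariate (median 0.13). Myokines were below 0 in 6 of 7 cases, none at an unadjusted p under 0.05. Their median was -0.27, between -0.51 without resting library 4 and -0.13 without resting library 2. With the covariate 4 of 7 were below 0, with a median of -0.07. Il6, Lif, Fgf21, Gdf15 and 3 others of that list did not pass the count filter.

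**Figure D4:**
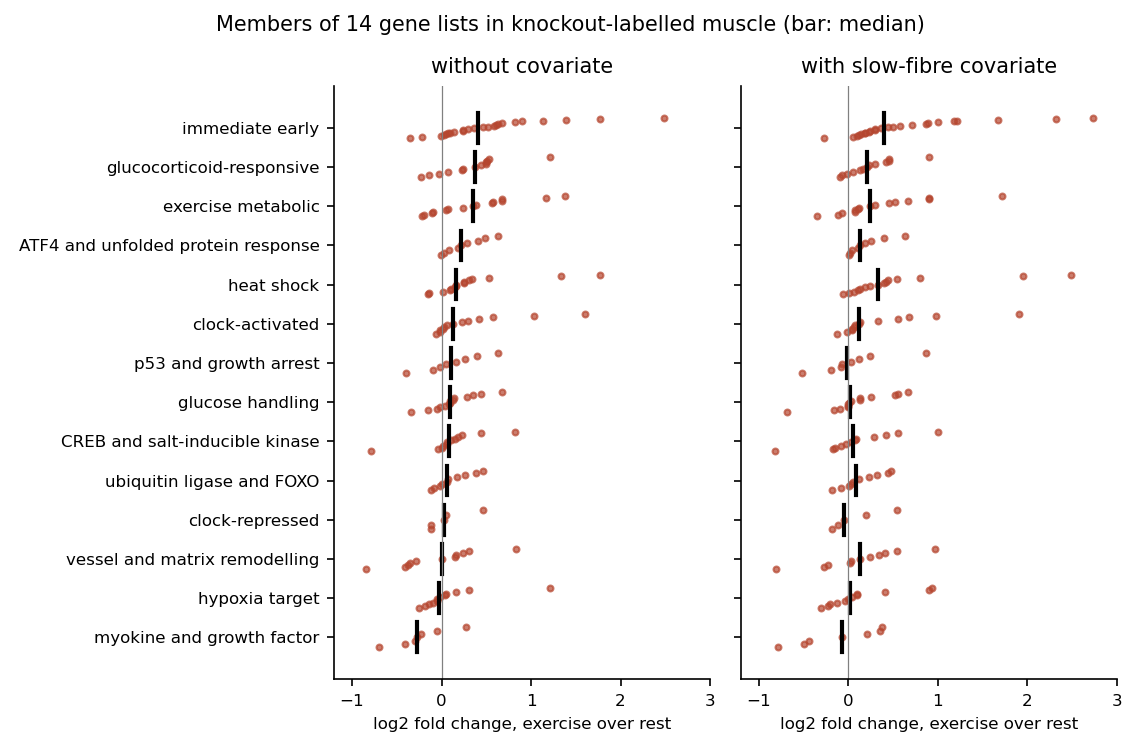
Log2 fold change, exercise over rest (x axis), of each tested member of 14 gene lists in knockout-labelled muscle, without (left) and with (right) the slow-fibre covariate, with list medians as bars. The immediate early median is 0.41 and 0.40 in the 2 fits, and the median over all 13560 genes is 0.00 and -0.01.

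Outside the lists, the genes with the smallest p among those whose libraries did not overlap were named by rule, and none of them passed the test. On the higher side, Zcchc2, a zinc finger protein, stood at 16.7, 12.9, 16.6, 18.1 and 14.2 CPM at rest and 19.9, 24.3, 24.3, 25.8 and 25.6 CPM after exercise and had the smallest p of this group. Its log2 fold change was 0.61 without the covariate (SE 0.14, adjusted p 0.813) and 0.50 with it (SE 0.13, adjusted p 0.162). Dock8, a guanine nucleotide exchange factor best known from immune cells, stood at 3.48, 2.41, 1.77, 2.48 and 2.45 CPM at rest and 4.05, 4.75, 4.60, 5.67 and 3.94 CPM after exercise (0.86, SE 0.22, adjusted p 0.813). Lrrc8c, a subunit of volume-regulated anion channels, stood at 7.96, 8.62, 6.75, 11.4 and 10.1 CPM at rest and 14.6, 11.98, 12.9, 13.2 and 13.2 CPM after exercise (0.55, SE 0.15). Rassf4, Mapkbp1, Sfrp1, a secreted inhibitor of WNT, and Ecm1, an extracellular matrix protein, differed by 1.05, 0.44, 1.02 and 0.58. An antisense gene, Gm13999, overlaps Mapkbp1.

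On the lower side, Fam136a, a mitochondrial protein, stood at 13.7, 16.8, 13.5, 14.3 and 13.6 CPM at rest and 11.3, 9.50, 11.7, 11.5 and 10.6 CPM after exercise (-0.40, SE 0.10, adjusted p 0.813). Rps16, a protein of the small ribosomal subunit whose reads may be shared with pseudogenes, stood at 90.9, 78.4, 66.6, 77.4 and 73.05 CPM at rest and 65.2, 55.3, 61.7, 53.8 and 65.6 CPM after exercise (-0.36, SE 0.09). Fat4, a giant cadherin, stood at 3.73, 3.79, 5.42, 5.50 and 7.03 CPM at rest and 3.24, 3.45, 2.30, 2.02 and 3.00 CPM after exercise (-0.86, SE 0.24). Gpsm2, Eef1akmt1, Pfdn6, Sdhaf3 and Dgke differed by -0.73, -0.45, -0.44, -0.39 and -0.51. The vessel genes Gja5, a connexin of arteries, and Clec14a, an endothelial lectin, differed by -0.56 and -0.65, and Gpr89 overlaps Gja5 while Clcc1 overlaps Gpsm2. In the covariate fit the rule added Nt5c, Cops6, Lgals1 and the pseudogene Rpl9-ps7, at -0.71, -0.24, -0.39 and -0.98. Exons of Armc7 and Mcm7 overlap Nt5c and Cops6 on the other strand.

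Whether this response differed from that of vehicle-treated muscle was tested as the interaction of exercise and treatment. In vehicle, 109 genes changed (0.804%), 82 of them higher (0.605%), and 254 with the covariate (1.87%). No gene passed the interaction test with edgeR (0%), with 791 at an unadjusted p under 0.05 (5.83%), nor with limma-voom (773). With the covariate none passed either, and 1034 genes had an unadjusted p under 0.05 (7.63%). DESeq2 called 3 without the covariate, Sik1, Mrps6 and Nfil3, and 11 with it, 9 of them negative. Leaving out exercised vehicle library 5 gave 6 calls in the edgeR fit with the covariate, all negative, and leaving out exercised knockout-labelled library 3 gave 1. Of the 109 vehicle genes, 100 had the same direction in knockout-labelled muscle and none was called there. The share with the same direction over all genes was not computed. An unadjusted p under 0.05 in that direction was reached by 25 (over all genes, 2.43% higher and 2.29% lower). The interaction had an unadjusted p under 0.05 for 82 of the 109 (5.83% of all genes), in a test that uses the vehicle values that chose them. The median absolute log2 fold change of the 109 was 0.95 in vehicle, which chose them, and 0.27 in knockout-labelled muscle.

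The genes with the smallest interaction p below 0 were Nfil3, Mrps6, Sik1, Lpin1 and Rps16. Nfil3 lay at 22.2 to 38.4 CPM at rest and 75.7 to 125 CPM after exercise in vehicle. In knockout-labelled muscle it lay at 50.5 to 94.8 CPM at rest and 90.7 to 123 CPM after exercise. Its exercised levels overlapped between treatments, and its resting levels did not. The interaction was -1.25 (SE 0.24, edgeR adjusted p 0.275). It passed with DESeq2 without the covariate (adjusted p 0.00351) and with it (adjusted p 0.00122), and in edgeR without resting knockout-labelled library 3 (adjusted p 0.0385). Sik1 lay at 7.55 to 15.7 CPM at rest and 48.8 to 102 CPM after exercise in vehicle. In knockout-labelled muscle it lay at 10.1 to 22.5 CPM and 16.4 to 37.6 CPM. Here the resting levels overlapped between treatments and the exercised levels did not (-1.95, SE 0.41, adjusted p 0.595). Lpin1 had -0.51 (adjusted p 0.671). Mrps6, which shares exon sequence with Slc5a3 on the same strand, and Rps16 differed in opposite directions, at -0.64 and -0.36 in knockout-labelled muscle and 0.63 and 0.17 in vehicle. On the positive side stood Dock8 (1.32), Sfrp1 (1.65), Zfp719 (1.16), Fzd7 (0.79) and Aebp1 (0.61), none passing.

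Some of the genes called in those other fits of the interaction with the covariate are described here, chosen after their values were seen. Nr3c1, the glucocorticoid receptor, was called with DESeq2, without a count filter, and without exercised vehicle library 5. It lay at 62.7 to 77.01 CPM at rest and 80.7 to 141 CPM after exercise in vehicle, without overlap. In knockout-labelled muscle it lay at 58.3 to 80.8 CPM at rest and 58.8 to 78.5 CPM after exercise, which overlapped. Mt2, a metallothionein induced by metals and glucocorticoids, was called with DESeq2 and without exercised vehicle library 5. It lay at 1.78 to 3.32 CPM and 5.25 to 47.5 CPM in vehicle, and at 3.10 to 8.46 CPM and 3.94 to 11.7 CPM in knockout-labelled muscle. Sh3rf2 had a positive interaction, and was called with DESeq2, with the replicate number as a block, and without exercised knockout-labelled library 3. It lay at 23.3 to 44.7 CPM at rest and 11.5 to 22.3 CPM after exercise in vehicle, and at 14.1 to 30.7 CPM and 22.8 to 34.8 CPM in knockout-labelled muscle.

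By list, in the fit without the covariate, the interaction was below 0 for 14 of 15 heat shock genes (median -0.46). It was below 0 for 16 of 24 immediate early genes (median -0.31) and for 6736 of all 13560 genes. In each of the 2 lists, 6 genes had an unadjusted p under 0.05, all negative (3.24% of all genes). The clock-activated list lay the other way, with 3 of 13 below 0 and a median of 0.20. Per1 differed by 1.04 in knockout-labelled muscle and 1.03 in vehicle, with an interaction of 0.01 (SE 0.41). For Irs2 the values were 1.38 and 1.75, and for Adamts9 0.83 and 1.52 (interaction -0.69, SE 0.25, unadjusted p 0.0128, adjusted p 0.780). For these genes a difference between the treatments was not shown.

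**Figure D5:**
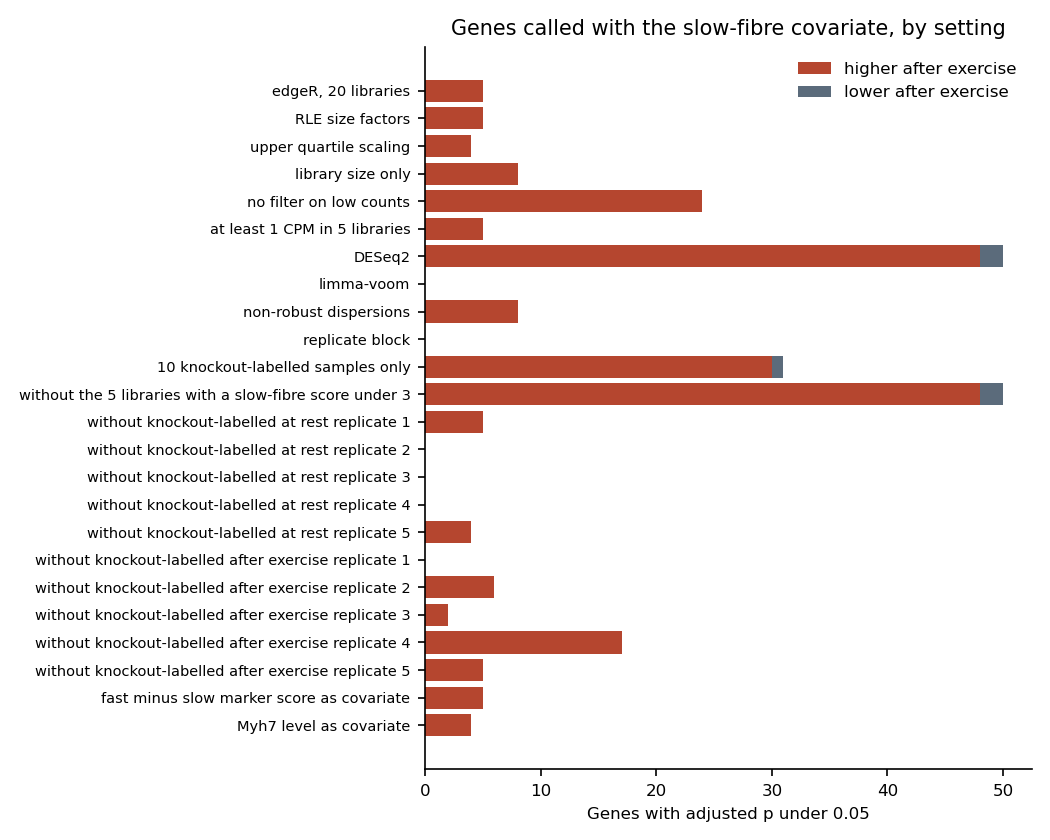
Number of genes with an adjusted p under 0.05 for exercise against rest in knockout-labelled muscle with the slow-fibre covariate (x axis), under each setting (y axis), split by direction. The count lies between 0 and 50, and the calls are nearly all higher after exercise, with at most 2 lower in any setting plotted.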

How the data were processed

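Total RNA from gastrocnemius (Trizol with a Qiagen kit, Illumina libraries, per the labels' protocols) gave 1 table of raw counts per gene symbol, deposited by the authors for 20 samples in 4 groups of 5. The submitters' processing notes name Partek, STAR 2.7.8a and DESeq2, and the builds mm10 and GRCm39 with no role, so gene coordinates are given only for RefSeq promoters. Strand use and the annotation counted are not given in the sources used here. Totals ran from 8045154 to 11269812 counts per sample.

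Of 53311 rows, 13560 passed edgeR's filterByExpr (minimum count 10) and held 99.8% of counts. The 106 rows with a repeated symbol were kept as separate rows. Counts were scaled by TMM and tested in R 4.3.3 with edgeR 4.0.16 (robust quasi-likelihood F test, 1 mean per group over all 20 samples, Benjamini-Hochberg over all genes, threshold 0.05), with and without the slow-fibre score (mean log2 CPM, prior count 2, of 10 markers, which were not counted as called in that fit). DESeq2 1.42.0 and limma 3.58.1 were alternatives, as were other scalings, filters, covariates and sets of libraries. The fits were tested on simulated data. Genes were named by rule: up to 10 per direction with the smallest p among those passing and, where fewer passed, among genes at a mean log2 CPM of at least 1 whose groups do not overlap, then the first 5 per direction for the interaction, and list members. The members and lists were chosen with earlier results of these data known, and gene lists are described by counts and medians only. Of 115 genes looked up, 94 had a RefSeq promoter window. A whole autosome was left out of the promoter scan, so genes on it count as having no window. The shares over all windows and all genes leave it out too. A pairing of the samples by replicate number was not shown (closing section). Within a knockout-labelled group, no 2 libraries agreed within counting noise: the closest pair gave a chi-square per degree of freedom of 11.2 at rest and 4.57 after exercise.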

Additional observations from a re-analysis of the deposited data

Results flagged for a closer look

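In groups of 5, a library is listed here when its gap to the nearest of the others exceeds 0.71 of the group's range (Dixon's 95% limit). Of 64 group values examined, 8 were listed, and chance alone lists about 1 in 20. Exercised knockout-labelled library 4 stood apart in 4 of them: Egr1 at 13.9 CPM against 4.49 to 6.59 CPM in the other 4, Cops6 at 47.9 against 58.6 to 60.6 CPM, Gja5 at 1.35 against 2.43 to 2.84 CPM, and Pfdn6 at 9.45 against 15.01 to 17.2 CPM. It is also 1 of the 2 exercised libraries with a slow-fibre score under 3, and the part of that score in these values was not tested. Resting library 2 stood apart for Gpsm2 (7.12 against 3.87 to 4.35 CPM), Fam136a (16.8 against 13.5 to 14.3 CPM) and Mapkbp1 (8.16 against 10.4 to 11.2 CPM). Exercised library 1 stood apart for Zcchc2 (19.9 against 24.3 to 25.8 CPM).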

How the results depend on the processing

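The count of 0 genes in knockout-labelled muscle without the covariate held under each scaling, filter and tool and each left-out library. The exceptions were 5 genes with the covariate and 3 without the 5 low-score libraries, a set chosen after seeing the data. With the covariate, the 5 calls became 8 with library sizes alone, 24 without a count filter, 50 with DESeq2, 0 with limma-voom, 8 with non-robust dispersions, 31 with the 10 knockout-labelled libraries alone and 50 without the 5 low-score libraries. Leaving out 1 knockout-labelled library gave 0 to 17 calls (0 without resting library 2, 3 or 4 or exercised library 1), and leaving out 1 vehicle library gave 0 to 16. The interaction count of 0 became 3 with DESeq2 and lay between 0 and 1 with 1 library left out. With the covariate, under alternatives added after seeing the data, the interaction count of 0 became 11 with DESeq2, 2 without a count filter and 1 with the replicate block. It lay between 0 and 6 with 1 library left out (6 without exercised vehicle library 5, 1 without exercised knockout-labelled library 3). The slow-fibre difference lay between -3.21 and -1.63 with 1 library left out, with exact permutation p from 0.0714 to 0.317. The cause of these changes was not tested. Of 3065 single-gene values, 2981 kept their side of the threshold, 44 lost a call, 40 gained a call and 0 reversed. Most of these values had no call to lose. The 44 losses all fell on the 5 genes called with the covariate. Over 23 alternatives each, Plxna2 lost its call in 6, Adamts9 in 8, Gpr4 in 9, Slc9a3r2 in 11 and Pdxk in 10. Fits without 1 vehicle library are not among those 23. Of 280 list medians, 2 moved by at least the SD of the list's mean log2 CPM between libraries of a group, averaged over the knockout-labelled groups. That bar is wide: the myokine median ran from -0.51 to -0.07 without counting as moved.

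With the replicate block, the covariate fit called 0 genes, the fit without covariate and its interaction also 0, and the interaction with the covariate 1, Sh3rf2. Same-numbered libraries had deviations correlated at -0.136, -0.381, -0.113, 0.318 and 0.181, and 2 of 10 libraries correlated best with their own number. A pairing of the samples by number was thus not shown, and these correlations cannot exclude it. For the slow-fibre score, the mean of the same-numbered differences is -2.44 by construction. Its exact two-sided p over all sign changes was 0.25.

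At 8045154 to 11269812 counts per library, genes such as Nr4a2, Ciart and Gpr4 rest on few counts, and small differences in them were not detectable with 5 libraries a group.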
